A study of Mus musculus with 2 samples.

Results

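The cells described here carried the highest share of transcripts of 10 mitotic genes among mouse embryonic stem (ES) cells profiled one by one. They were chosen by measured values, separately in each of 2 libraries. A cell barcode was kept when it had at least 2000 unique molecular identifiers (UMIs, tags that count single captured transcripts), a share of mitochondrially encoded UMIs from 0.5% to 20%, at least 5% of UMIs on ribosomal protein genes and under 0.3% on the fibroblast collagens *Col1a1*, *Col1a2* and *Col3a1*. Kept cells were ranked by the summed UMI share of 10 genes, *Ccnb1*, *Cdc20*, *Plk1*, *Aurka*, *Cenpa*, *Cenpe*, *Cenpf*, *Ube2c*, *Hmmr* and *Tpx2*, which is called the score. The top 10% were the mitotic-transcript-rich cells, with 136 of 1362 kept cells of the wild-type (WT) library and 78 of 779 of the *Lin28a* knockout (AKO) library, in all 214 of 2141 kept cells and of 10389 barcodes. The remaining 1226 WT and 701 AKO cells served as the reference within their own library.

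Both libraries were made with the inDrop system, in which cells are captured in droplets and transcripts are primed at their poly(A) tails, so a UMI counts a molecule whatever the length of its gene. The WT library came from clone a2.1, which was transfected, stayed wild type and is labelled untreated, and the AKO library from clone a3.5, made by CRISPR/Cas9 with a guide to the second exon of *Lin28a*, an RNA binding protein of early embryos and stem cells. Both clones came from the ES line E14. The ICM-derived cells were grown for 2 days in LIF/2i medium on gelatin with mouse embryonic fibroblast feeders. Each condition was thus 1 clone and 1 library without replicate, no test was made, and the 95% intervals below cover only the error of counting. What differs between the libraries can come from the genotype, the clone, the culture or the preparation and sequencing of the library, which cannot be told apart. Barcodes were numbered anew in each file, so barcodes shared by the libraries could not be counted.

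Proteins that build the spindle, attach chromosomes to it and trigger anaphase are made mainly in G2 and mitosis and are destroyed as mitosis ends. Many of their genes carry a CCAAT box, bound by NF-Y, and a cell cycle genes homology region (CHR), through which the MuvB complex holds them silent in G1 and, with B-Myb and FoxM1, turns them on in G2. Histone genes of the replication-dependent class are by contrast transcribed in S phase, and their mRNAs are degraded when replication ends. ES cells cycle fast, with a short G1 phase.

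The promoters of 4 score genes are shown, 3 because they hold both of these elements' letters. That of *Ccnb1* is shown because its window held the letters of the CCAAT box only. RefSeq windows of GRCm38.p6, from 250 bases before to 50 bases after the RefSeq start, were found for 9 of the 10 score genes. Each line below runs 5′ to 3′ on the gene's strand and ends at most 30 bases after the RefSeq or GENCODE M21 start, whichever lies further upstream, and capitals mark every match to the CHR letters (TTTGAA, or TTCAAA on the other strand) and to the CCAAT box (CCAAT, or ATTGG).
*Ube2c* (chr2:164769679-164769927, plus strand): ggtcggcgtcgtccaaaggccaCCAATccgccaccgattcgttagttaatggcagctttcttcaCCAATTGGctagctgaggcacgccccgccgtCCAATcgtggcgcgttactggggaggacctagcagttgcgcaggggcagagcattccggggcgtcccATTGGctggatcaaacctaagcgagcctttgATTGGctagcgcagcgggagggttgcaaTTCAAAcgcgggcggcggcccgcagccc
*Cdc20* (chr4:118437323-118437593, minus strand): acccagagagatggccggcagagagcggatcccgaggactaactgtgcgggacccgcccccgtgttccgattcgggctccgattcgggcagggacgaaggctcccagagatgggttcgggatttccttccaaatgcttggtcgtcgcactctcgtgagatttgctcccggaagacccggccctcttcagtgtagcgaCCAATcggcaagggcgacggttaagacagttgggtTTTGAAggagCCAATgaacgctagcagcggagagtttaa
*Cenpf* (chr1:189688057-189688336, minus strand): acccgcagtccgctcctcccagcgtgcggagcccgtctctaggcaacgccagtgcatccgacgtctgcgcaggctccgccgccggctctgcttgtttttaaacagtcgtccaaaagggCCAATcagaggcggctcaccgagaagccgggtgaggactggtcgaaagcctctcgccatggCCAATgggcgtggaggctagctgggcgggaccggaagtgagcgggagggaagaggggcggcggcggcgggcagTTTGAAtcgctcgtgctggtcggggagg
*Ccnb1* (chr13:100786541-100786736, minus strand): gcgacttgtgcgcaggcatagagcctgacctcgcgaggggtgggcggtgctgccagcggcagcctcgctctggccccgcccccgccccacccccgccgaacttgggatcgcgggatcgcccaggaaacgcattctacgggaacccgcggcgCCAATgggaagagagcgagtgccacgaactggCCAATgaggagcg

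A CCAAT match lay in the windows of all 9 score genes that had one, and a CHR match in 7, whereas *Ccnb1* and *Cenpe* held no CHR match in these windows. Counted from the RefSeq start, the CHR match began at base -29 in *Ube2c*, -18 in *Cdc20*, 3 in *Cenpf*, 9 in *Hmmr* and 17 in *Cenpa*. In *Plk1* and *Aurka* it began at bases 31 and 33, where base 1 is the start itself. The GENCODE M21 start lies upstream of the RefSeq start by 31 bases in *Ube2c*, 9 in *Cdc20*, 109 in *Cenpa*, 84 in *Ccnb1* and 26 in *Cenpe*, and downstream of it by 35 bases in *Aurka*, 15 in *Hmmr* and 4 in *Plk1*. Positions, and what a window holds, thus depend on the start used for 8 of the 9 genes. *Ube2c* had 6 CCAAT matches, 2 of them overlapping in the palindrome CCAATTGG, *Hmmr* had 5 and *Ccnb1* had 2. Among mitotic genes outside the score, 40 of 67 windows (59.7%) held a CHR match, 45 (67.16%) a CCAAT match and 32 (47.76%) both. The same shares were 12.62%, 39.91% and 5.56% over the 5522 windows of all genes compared here, and 18.11%, 37.92% and 7.123% over all 27025 windows. DNA replication genes held CCAAT at a similar share, 66.67% of 30 windows, but CHR in 3, and ribosomal protein genes held CHR in 4 of 62 (6.452%). Only these exact letters were searched, in a single window per gene, so variants of either element were not counted. A match is a run of letters and not a measured binding site.

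The 10 genes that chose the cells fall into a few roles. *Ccnb1* encodes cyclin B1, the partner of Cdk1, and *Plk1* and *Aurka* encode kinases of mitotic entry and the spindle. Cdc20 activates the anaphase-promoting complex, the ubiquitin ligase that ends mitosis, and Ube2c is its ubiquitin-conjugating enzyme. *Cenpa* encodes the histone H3 variant of centromeres, *Cenpe* a kinetochore motor and *Cenpf* a kinetochore protein, while the Tpx2 and Hmmr proteins assemble spindle microtubules. The score of the members ran from 0.2909% to 0.5083% of a cell's UMIs in the WT library, with a median of 0.3293%, and from 0.2932% to 0.4798% in the AKO library, with a median of 0.3353%. In the remaining cells the medians were 0.1334% and 0.1243%. The limit fell within a continuous range, since the highest score outside the members was 0.2901% in the WT and 0.2928% in the AKO library. The score rested on few molecules per cell, with a median of 26 UMIs (7 to 72) in WT and 26.5 UMIs (7 to 80) in AKO members, and 3 members of each library had under 10. When every cell was thinned to 2000 UMIs before the choice, 77 of the 136 WT members (56.62%) and 42 of the 78 AKO members (53.85%) were chosen again. A member held UMIs of a median of 8 of the 10 genes, against 5 in the remaining WT and 6 in the remaining AKO cells.

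Levels of the score genes were summed over cells and scaled to counts per 1000000 UMIs (CPM), and they describe the choice of cells rather than test it. *Ube2c* (chromosome 2, from 164769898 to 164778822 in GENCODE M21 of GRCm38) stood at 1011.5 CPM (951.4 to 1074.4) in WT members against 329.0 CPM in the remaining cells, and at 1211.7 CPM (1130.6 to 1297.0) in AKO members against 422.0 CPM. It alone gave 29.22% of the members' score UMIs in the WT and 35.65% in the AKO library. *Cenpf* stood at 463.6 against 166.1 CPM in the WT and at 319.7 against 108.5 CPM in the AKO library. *Aurka* gave the fewest score UMIs of WT members, at 142.7 against 50.97 CPM, and *Cenpe* the fewest of AKO members, at 103.6 against 62.97 CPM. Over the other genes the members had from 170.5 CPM (*Plk1*) to 364.0 CPM (*Cenpa*) in the WT and from 157.7 CPM (*Aurka*) to 370.8 CPM (*Ccnb1*) in the AKO library. The summed score genes were 2.375 and 2.392 times as high in members as in the remaining cells.

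**Figure D1:**
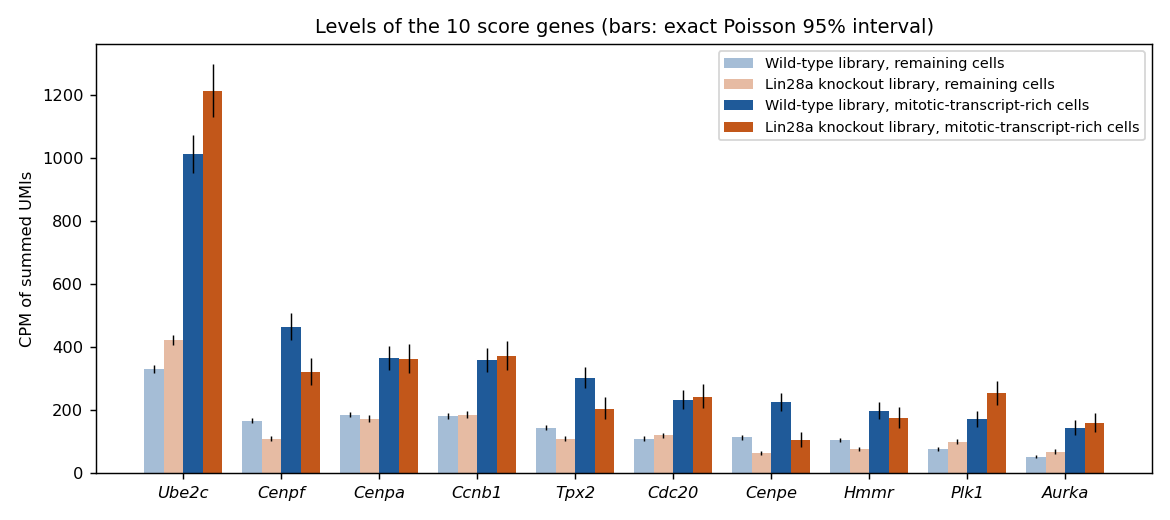
Levels of the 10 score genes as CPM of summed UMIs, in mitotic-transcript-rich cells (full colour) and the remaining cells (pale) of the WT (blue) and AKO (orange) libraries, with exact Poisson 95% intervals as thin lines. *Ube2c* is the highest bar in every group, at 1011.5 and 1211.7 CPM in the members, and *Cenpe* at 103.6 CPM is the lowest of the AKO members.

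To see how far the score genes moved together, the cells were chosen again by 9 genes and the level of the gene left out was read in them. The gene left out was higher in the top 10% in all 20 readings. Its ratio over the remaining cells was lower than with all 10 genes in every case. *Ube2c* went from 3.075 to 2.143 (1.976 to 2.321) in the WT and from 2.871 to 1.937 (1.772 to 2.115) in the AKO library. *Cenpf* went from 2.791 to 1.884 and from 2.947 to 1.868. *Plk1* had the highest ratio of the AKO library when left out, at 2.355 (1.971 to 2.801), and 1.938 in the WT library. *Hmmr* was the lowest of the WT library at 1.527 (1.289 to 1.800). *Cenpe* was the lowest of the AKO library at 1.330 (0.9943 to 1.752), from 59 UMIs, the only interval that reached 1. Leaving out *Ube2c* replaced the most cells, with 100 of 136 WT and 53 of 78 AKO members kept.

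**Figure D2:**
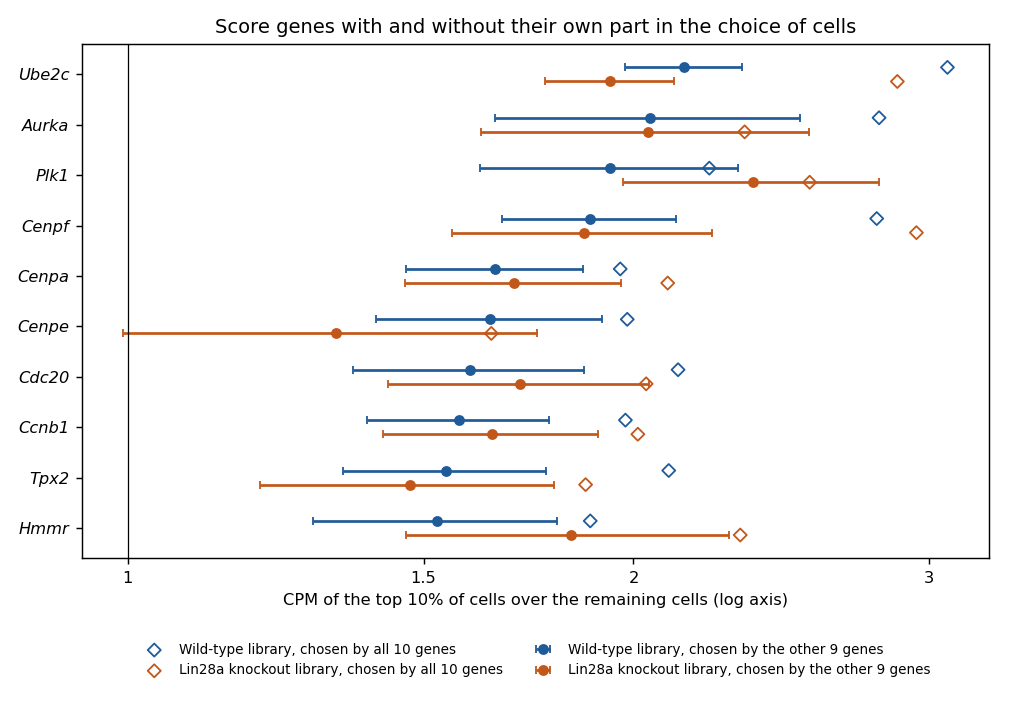
Ratio of the CPM of each score gene in the top 10% of cells over the remaining cells on a log axis, with the cells chosen by the other 9 genes (filled circles, exact 95% intervals for a ratio of counts) or by all 10 (open diamonds), for the WT (blue) and AKO (orange) libraries. Every filled circle lies right of 1 and left of its diamond, from 1.330 for AKO *Cenpe* to 2.355 for AKO *Plk1*.

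Genes of mitosis that had no part in the score were higher in the members of both libraries. The 79 such genes made up 0.9871% of the members' UMIs against 0.7639% in the remaining WT cells, a ratio of 1.292 (1.265 to 1.319), and 0.9206% against 0.6728% in the AKO library, a ratio of 1.368 (1.332 to 1.405). Of the 75 with at least 100 UMIs in the kept cells of each library, 62 had ratios above 1 in both libraries, against 29.78% of all 8076 genes compared by the same limit, the score genes left out. Their median ratio was 1.267 in the WT and 1.326 in the AKO library, where the median of all genes was 1.007 and 1.005. With a limit of a 1.5-fold difference in the same direction in both libraries, 11 of the 75 were higher and 0 lower, while over all genes 50 (0.619%) were higher and 31 (0.384%) lower. The counts over all genes depended on the choice of members, with 95 higher and 93 lower for the top 5%, 32 and 18 for the top 20%, and 28 higher with the score thinned to 2000 UMIs, and on the minimum, with 11 and 14 at 400 UMIs per library and 5756 and 646 without one. Cell by cell the median share of these genes was 0.9696% in WT and 0.9054% in AKO members, and 123 (90.44%) and 72 (92.31%) of the members lay above the median of the remaining cells.

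Cyclins, Cdk1 and their regulators were 1.388-fold (1.320 to 1.459) and 1.422-fold (1.336 to 1.513) higher in the WT and AKO members. *Cdk1*, the kinase that drives entry into mitosis, stood at 282.6 against 165.0 CPM in the WT and 322.6 against 177.0 CPM in the AKO library, ratios of 1.713 (1.505 to 1.944) and 1.823 (1.570 to 2.108). *Ccnf*, which was named after its values were seen and encodes cyclin F, a substrate receptor of the SCF ubiquitin ligase, was the other gene of this list past 1.5-fold, with ratios of 1.662 and 1.710. All 9 genes compared of this list, regulators such as *Cks2* (1.409 and 1.380), *Cks1b* (1.117 and 1.123) and *Ccna2*, encoding cyclin A2 (1.224 and 1.409), included, had ratios on the 0.5-added scale above 1 in both libraries.

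Spindle motors and microtubule-binding proteins were 1.322-fold (1.256 to 1.389) and 1.538-fold (1.446 to 1.635) higher. *Nusap1*, which bundles spindle microtubules near chromosomes, had 106 and 65 UMIs in the members, 101.5 against 42.35 CPM in the WT and 94.89 against 40.62 CPM in the AKO library, ratios of 2.397 (1.910 to 2.989) and 2.336 (1.750 to 3.081). *Troap*, a spindle-associated protein, had ratios of 2.460 (1.652 to 3.588) and 2.237 (1.410 to 3.437) on 37 and 27 UMIs, and *Ckap2*, a microtubule-associated protein, had ratios of 1.601 and 1.645. The motor *Kif11*, which pushes spindle poles apart, was closer to the remaining cells at 1.403 and 1.526, as were *Kif20b* (1.249 and 1.430) and *Numa1* (1.115 and 1.280). Of the 20 genes compared 19 had both ratios above 1. The exception was the motor *Kif15*, named after its values were seen, at 0.7587 and 0.7680.

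Genes of the kinetochore and the spindle checkpoint differed less, with sums 1.201-fold (1.138 to 1.268) and 1.268-fold (1.181 to 1.360) higher. Both ratios were above 1 in 12 of 16 genes and below 1 in 1, and 0 passed 1.5-fold in both libraries. *Bub3*, a checkpoint protein, came nearest with 1.897 (1.633 to 2.196) in the WT and 1.489 (1.207 to 1.823) in the AKO library. The intervals of *Mad2l1*, the checkpoint protein Mad2, held 1 in both libraries (1.074, 0.9378 to 1.225, and 1.094, 0.9129 to 1.302), as did those of *Spc24* (0.9761 and 1.099) and *Cenpm* (1.103 and 1.252). The 4 genes of the chromosomal passenger complex, which corrects faulty attachments and then directs cleavage, were together 1.371-fold and 1.497-fold higher. Its kinase *Aurkb* had 1.809 (1.374 to 2.354) and 1.784 (1.336 to 2.350) and its scaffold *Incenp* 1.501 (1.307 to 1.717) and 1.942 (1.652 to 2.274), whereas *Birc5* (1.382 and 1.210) and *Cdca8* (1.157 and 1.345) stayed under 1.5.

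Among genes of mitotic chromosome structure, 1.252-fold and 1.330-fold higher as a sum, *Top2a* and *Mki67* stood apart from the condensins. Of the 10 genes compared, 7 had both ratios above 1 and 1 had both below. *Top2a*, which untangles sister DNA, had 839.1 against 552.8 CPM in the WT and 681.7 against 460.8 CPM in the AKO library, ratios of 1.518 (1.410 to 1.632) and 1.479 (1.339 to 1.632). *Mki67*, whose protein coats mitotic chromosomes and which was named after its values were seen, had 1.730 and 1.722. The condensin subunits had ratios of 1.080 and 1.294 (*Smc4*), 1.100 and 1.202 (*Smc2*) and 1.129 and 1.155 (*Ncapd2*). Cytokinesis genes were 1.342-fold and 1.338-fold higher, led by *Kif20a*, the motor of the central spindle, with 1.527 (1.300 to 1.786) and 1.714 (1.425 to 2.050), and by the midzone bundler *Prc1* with 1.539 and 1.801, named after its values were seen. *Anln* had 1.252 and 1.198, and *Ect2* was at 1.278 in the WT and 0.9671 in the AKO library. Genes of anaphase and mitotic exit were 1.199-fold and 1.155-fold higher as a sum. Of the 8 compared, 4 had both ratios above 1 and 1 had both below. The intervals of *Anapc11* (0.9473 and 1.029) and *Espl1* (1.270 and 1.175) held 1 in both libraries. *Fzr1*, the other activator of the anaphase-promoting complex, stood out with 1.964 (1.514 to 2.521) and 1.948 (1.494 to 2.511), while *Ube2s* had 1.265 and 1.144, and for securin, *Pttg1*, the ratios of 0.9786 and 1.249 had intervals that held 1.

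The transcripts of the factors that control this programme had sums whose intervals held 1 in both libraries. The 11 genes of the DREAM, B-Myb-MuvB and FoxM1 list were at 447.3 against 416.1 CPM in the WT and 540.1 against 535.5 CPM in the AKO library, ratios of 1.075 (0.9737 to 1.185) and 1.009 (0.9034 to 1.123). *Mybl2*, encoding B-Myb, had 1.279 (1.067 to 1.525) and 1.101 (0.9286 to 1.297), *E2f4* 1.084 and 0.7885, and *Lin9* 1.061 and 0.9179.

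The largest difference of any list was in histone genes, which were lower in the members. The 70 replication-dependent histone genes made up 0.1577% of the members' UMIs against 0.8562% in the remaining WT cells, a ratio of 0.1841 (0.1753 to 0.1934), and 0.1664% against 1.043% in the AKO library, a ratio of 0.1595 (0.1503 to 0.1692). With each cell thinned to 2000 UMIs before the choice of members, the ratios were nearer to 1, at 0.3178 and 0.2949. All 14 that reached 100 UMIs in each library were more than 1.5-fold lower in both. The median share per cell was 0.08406% in WT members against 0.7213%, and 0.1197% in AKO members against 0.8729%. In all, 130 of 136 WT members (95.59%) and 75 of 78 AKO members (96.15%) lay below the median of the remaining cells of their library. A few did not, as 1 WT member held 2.748% and 1 AKO member 2.318% histone UMIs.

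*Hist1h2ap* (chromosome 13, from 21833026 to 21833507, minus strand) had 302 UMIs in WT and 204 in AKO members, 289.3 against 1683.5 CPM and 297.8 against 1996.7 CPM, ratios of 0.1718 (0.1528 to 0.1926) and 0.1492 (0.1292 to 0.1713). *Hist1h2ad* had ratios of 0.1841 and 0.1627, and *Hist1h2ab* of 0.1935 and 0.1601. These genes and 10 others of the 14 encode H2A and are near-identical copies, so the counting may have split their reads and the sum is firmer than any copy. H2A genes gave 1495 of the 1646 histone UMIs of WT members and 1074 of the 1140 of AKO members. The *Gm11336* gene, which lies between *Hist1* genes on chromosome 13 and has no histone name, had similar ratios of 0.1601 and 0.1517. Outside H2A the 14th gene, *Hist1h1b* of linker histone H1, named after its values were seen, had ratios of 0.1077 and 0.3500 on 9 and 7 UMIs. The other classes gave few UMIs and uneven ratios, with 0.3741 (0.2942 to 0.4697) and 0.7611 (0.5165 to 1.087) for H3, 0.5985 (0.3692 to 0.9239) and 0.6362 (0.3498 to 1.074) for H2B, and 0.7266 (0.4571 to 1.106) and 0.1732 (0.03534 to 0.5157) for H4, the last on 24 and 3 UMIs. Replication-dependent histone mRNAs mostly end in a stem-loop without a poly(A) tail, and how much of them the poly(A) priming captured is unknown.

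**Figure D3:**
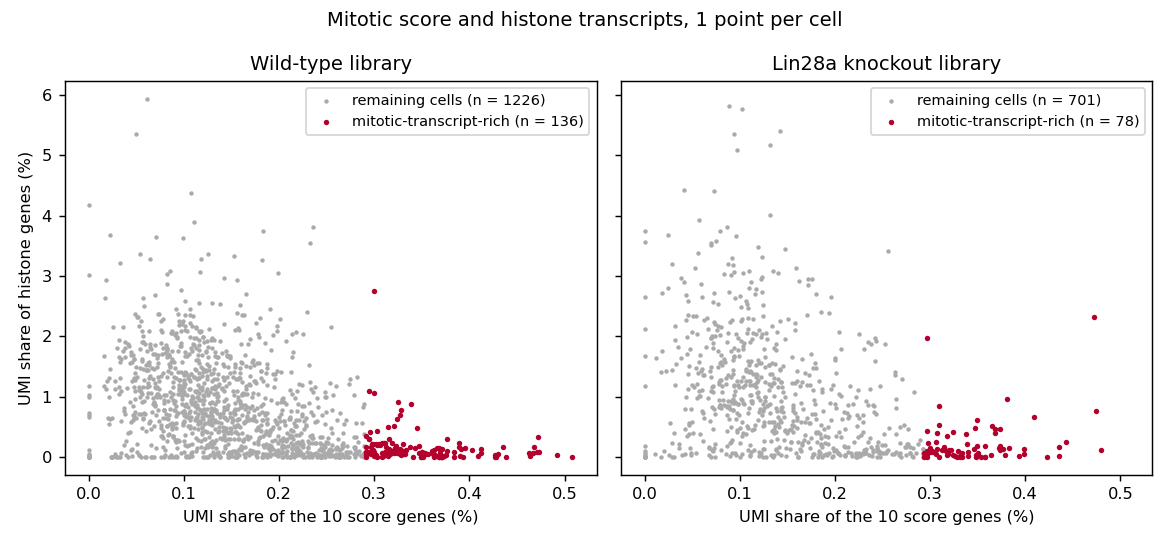
Share of UMIs on histone genes against the score, both in percent of a cell's UMIs, for each kept cell of the WT (left) and AKO (right) libraries, with members in red and the remaining cells in grey. Most red points lie near the floor of the plot, with medians of 0.08406% and 0.1197%. The highest red points stand at 2.748% and 2.318%, while grey points reach 5.938% and 5.819%.

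A low histone share was also found outside the members. Among the remaining cells 195 in the WT (15.91%) and 127 in the AKO library (18.12%) had a histone share at or below the members' median. Their median score of 0.1834% and 0.1881% was above the 0.1334% and 0.1243% of all remaining cells, and their median share of mitotic genes outside the score, 0.8634% and 0.7571%, lay between the members' 0.9696% and 0.9054% and the 0.7328% and 0.6387% of all remaining cells. When kept cells were ranked in the same way by histone share, the top 10% held 1 WT member (0.7353% of members) and 1 AKO member (1.282%). The top 10% by replication genes held 4 (2.941%) and 1 (1.282%), and the top 10% by mitotic genes outside the score held 49 (36.03%) and 28 (35.90%).

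DNA replication and G1/S genes were slightly lower in the members. They took 4996.1 against 5607.3 CPM in the WT library, a ratio of 0.8910 (0.8657 to 0.9169), and 4379.5 against 4947.9 CPM in the AKO library, a ratio of 0.8851 (0.8523 to 0.9190). None of the 35 genes compared passed 1.5-fold in both libraries, 22 had both ratios below 1 and 7 both above, while 26.88% of all genes had both below. *Pcna*, the sliding clamp of DNA polymerase, had ratios of 0.8030 (0.7346 to 0.8764) and 0.8225 (0.7199 to 0.9363). *Mcm2*, a subunit of the replicative helicase, stood at 1.020 in the WT and 0.8583 in the AKO library, and the chromatin remodeller *Hells* at 0.9245 and 0.7465. Chosen after their values were seen, *Slbp*, whose protein binds the histone stem-loop, had 0.5731 and 0.7502, and the ribonucleotide reductase subunit *Rrm2* had 0.7671 and 0.7597.

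Along the whole range of the score 3 lists differed by degrees. Kept cells outside the members were split into 9 equal parts by score, with the members as the tenth. Mitotic genes outside the score took 0.6128% of UMIs in the lowest part, 0.7518% in the fifth and 0.9871% in the members of the WT library, and 0.4658%, 0.6391% and 0.9206% in the AKO library. Histone genes took 1.201% in the lowest part, 0.8772% in the fifth, 0.3032% in the ninth and 0.1577% in the members of the WT library. In the AKO library they were highest in the second part, at 1.620%, and went through 1.304% and 0.3568% to 0.1664%. Replication genes differed little, from 0.5735% to 0.4996% in the WT and from 0.4695% over 0.5430% in the second part to 0.4380% in the AKO library. The lowest parts were also shallower, with a median of 5182 UMIs per cell in the WT and 5377 in the AKO library, and the part of this depth in the trend was not tested.

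**Figure D4:**
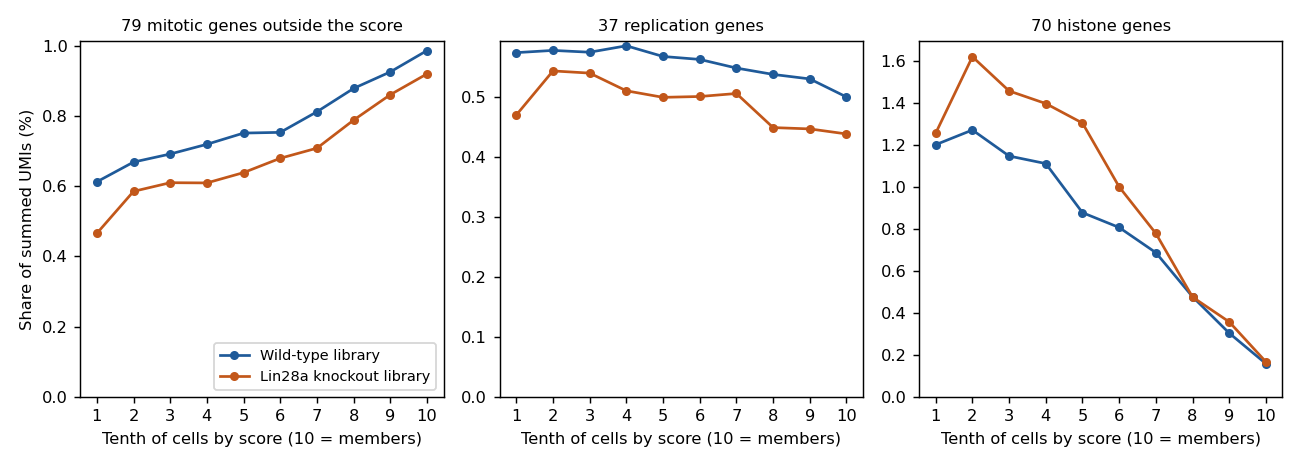
Share of summed UMIs in percent on mitotic genes outside the score (left), replication genes (middle) and histone genes (right) over 10 parts of the kept cells by rising score, where 10 is the members, in the WT (blue) and AKO (orange) libraries. Mitotic genes climb to 0.9871% and 0.9206%, histone genes drop to 0.1577% and 0.1664%, and replication genes end at 0.4996% and 0.4380%.

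Outside these lists, 39 of the 50 genes past 1.5-fold higher in both libraries stood on no mitotic list. Ranked by the smaller of the 2 ratios with 0.5 added to each count, *Fam83d* (chromosome 2, from 158768093 to 158786637), which recruits casein kinase to the spindle, led with 72.80 against 27.58 CPM in the WT and 83.21 against 34.26 CPM in the AKO library, ratios of 2.640 (2.007 to 3.439) and 2.429 (1.780 to 3.269). *Nusap1*, *Troap* and *Fzr1* followed, then, with their ratios before 0.5 was added, *Plcg1* (1.907 and 1.838), *Emp1* (1.849 and 2.433), *Jpt1* (1.801 and 1.900), *Aurkb*, *Reep4* (1.757 and 2.091), which clears endoplasmic reticulum from mitotic chromosomes, and *Fam178b* (1.771 and 1.730). Support was thin for many of the 50, since 22 had under 30 UMIs in the members of a library and 34 had intervals above 1 in both. Chosen for its precise values after they were seen, *Arl6ip1*, a membrane-shaping protein of the endoplasmic reticulum, had 890 and 463 UMIs in the members and ratios of 1.766 (1.640 to 1.900) and 1.626 (1.470 to 1.796). Also chosen so, the spindle pole gene *Aspm* had 1.659 and 2.158, and *Nde1*, which anchors dynein at kinetochores, 1.661 and 1.598. *Ccnb1-ps* (1.600 and 1.537), likewise named after its values were seen, is a pseudogene that may share reads with the score gene *Ccnb1*. Of 37 windows found for the 50 genes, 11 (29.73%) held a CHR match and 26 (70.27%) a CCAAT match.

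Of the 31 genes past 1.5-fold lower in both libraries, 14 were the histone genes and 17 were not, *Gm11336* among them. The 10 lowest were *Gm11336* and 9 H2A genes, from *Hist1h2ak*, with 8 and 4 UMIs and ratios of 0.1237 and 0.07005, to *Hist1h2ad*. Of the others, chosen after their values were seen, *Mrpl40* of the mitochondrial ribosome had 0.6540 (0.4315 to 0.9563) and 0.3740 (0.2023 to 0.6364), and *Med7* of the Mediator complex had 0.5679 (0.3415 to 0.8944) and 0.4786 (0.2258 to 0.8999). Also chosen so, the centromere gene *Cenpo*, which stood on no mitotic list, had 0.5872 (0.2471 to 1.2) and 0.369 (0.09857 to 0.9757) on 8 and 4 UMIs. Intervals were below 1 in both libraries for 20 of the 31.

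Markers of cell state and metabolism mostly had sums within about 10% of the remaining cells. Pluripotency genes had ratios of 1.026 (1.0 to 1.052) and 1.013 (0.9831 to 1.045), with *Pou5f1* at 887.9 against 822.3 CPM in the WT and 1086.1 against 1040.7 CPM in the AKO library, *Dppa5a* at 1.046 and 1.034 and *Zfp42* at 1.013 and 1.034. Primed epiblast genes, at 177 and 77 UMIs in the members, had 1.103 (0.9366 to 1.291) and 0.9350 (0.7295 to 1.184). Genes of the 2-cell-like programme gave too few UMIs for a comparison, with 6 WT and 3 AKO UMIs in the members over 19 genes, 5.747 CPM (2.109 to 12.51) against 3.078 and 4.380 CPM (0.9032 to 12.80) against 3.752. *Zfp809*, first placed on that list, was left out of these values after they were seen because it is no 2-cell gene. With it the ratios were 1.257 (0.6919 to 2.145) in the WT and 0.358 (0.09567 to 0.9455) in the AKO library, against 1.867 (0.6265 to 4.663) and 1.167 (0.2244 to 3.864) without it, so leaving it out turned the AKO direction. The authors describe 2-cell-like cells as low in ribosomal protein transcripts, and the rule removed cells with under 5% of such UMIs. The part of this in the low counts was not tested. Let-7 targets and *Lin28a* together had 1.088 and 1.030, p53 targets 1.0 (0.9412 to 1.062) and 1.054 (0.9850 to 1.128), glycolytic enzymes 1.016 and 1.026, mitochondrially encoded genes 0.9823 and 1.001, and G1 cyclins and Cdk inhibitors 1.065 and 0.9701. The rule itself limited the mitochondrially encoded share of every kept cell.

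**Figure D5:**
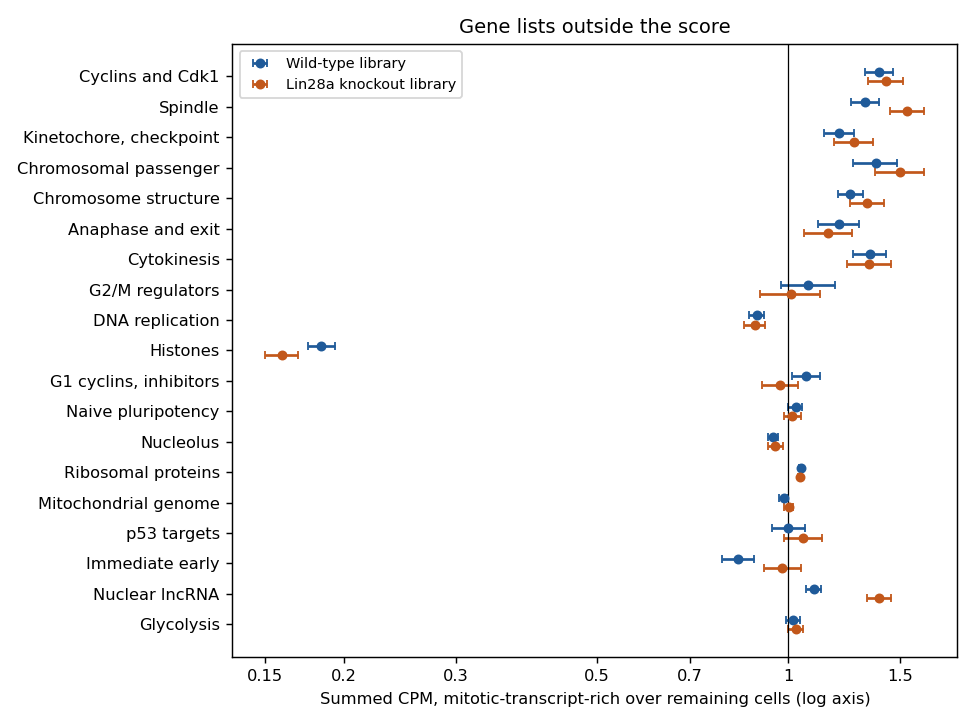
Ratio of summed CPM in mitotic-transcript-rich cells over the remaining cells on a log axis for gene lists outside the score, with exact 95% intervals for a ratio of counts (counting error only), in the WT (blue) and AKO (orange) libraries. All 7 mitotic lists lie right of 1, up to 1.538 for spindle genes in the AKO library, and histones lie far left at 0.1841 and 0.1595.

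Ribosomal protein genes, of interest because Lin28a acts in the nucleolus, where ribosomes are made, differed by a few percent. They took 9.296% against 8.898% of UMIs in the WT library, a ratio of 1.045 (1.038 to 1.052), and 10.11% against 9.696% in the AKO library, a ratio of 1.042 (1.034 to 1.051), with 0 of 84 genes compared past 1.5-fold in both. Cell by cell the median share was 8.773% against 8.681% in the WT and 9.827% against 9.419% in the AKO library. Of the members 53.68% and 56.41% lay above the median of the remaining cells. The abundant *Rpl27a* had 1.030 and 1.052, *Rps24* 1.026 and 1.074 and *Rpl23* 1.002 and 1.021. The direction did not hold in the AKO library once each cell was thinned to 2000 UMIs before the choice of members, where the ratio was 0.9978. Genes of the nucleolus and of rRNA processing were lower by a few percent, at 0.9462 (0.9284 to 0.9643) and 0.9536 (0.9283 to 0.9795), with *Npm1* at 0.8798 and 0.8987 and *Ncl* at 0.9403 and 0.9831, while the median ratio over their 30 genes was 1.011 and 0.9827. With the score thinned to 2000 UMIs their sums were at 0.9747 (0.9566 to 0.9931) in the WT and 0.9873 (0.963 to 1.012) in the AKO library.

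The ratios of some lists were further apart between the libraries than their counting intervals, among them the spindle and histone genes given above. For histone genes the order of the libraries turned with the top 5% as members, at 0.1211 (0.1110 to 0.1320) in the WT and 0.2046 (0.1890 to 0.2211) in the AKO library. Nuclear-retained long noncoding RNAs had a ratio of 1.096 (1.067 to 1.126) in the WT and 1.388 (1.330 to 1.448) in the AKO library. The median ratio of the 5 genes compared was 0.9981 in the WT and 1.3 in the AKO library, and 2 had both ratios above 1. *Malat1* gave 4764 of the list's 6052 UMIs in WT members and 1603 of 2502 in AKO members. *Malat1*, retained in nuclear speckles, stood at 4563.2 against 4135.5 CPM and at 2340.1 against 1654.6 CPM, ratios of 1.103 (1.070 to 1.137) and 1.414 (1.341 to 1.491). *Meg3* had 1.138 and 1.298, and *Kcnq1ot1*, the antisense RNA of the *Kcnq1* imprinted region, 0.9972 and 1.399. The median share per cell of these RNAs was 0.5299% against 0.4824% in the WT and 0.3197% against 0.2115% in the AKO library. Immediate early genes, with short-lived transcripts, had 0.8326 (0.7849 to 0.8827) in the WT and 0.9780 (0.9144 to 1.045) in the AKO library. The median ratio of the 13 genes compared was 0.8935 in the WT and 0.9734 in the AKO library. *Egr1* stood at 134.1 against 245.0 CPM in the WT library, a ratio of 0.5473 (0.4578 to 0.6499), and at 0.9039 (0.7368 to 1.100) in the AKO library, while *Ier2* had 0.9712 and 1.125 and *Btg1* 0.8913 and 0.9918. With 1 library per condition none of these differences was tested.

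The AKO cells were also read against the WT limit. With the lowest WT member score of 0.2909% as the limit for both, 83 of 779 AKO cells (10.65%, exact binomial interval 8.576% to 13.04%) passed, where the rule itself fixed the WT share at 10%. With every cell thinned to 2000 UMIs the limit was 7 score UMIs, and 78 AKO cells (10.01%, 7.995% to 12.34%) passed, while cells tied at the limit brought the WT share to 10.65% (145 cells). These intervals treat the cells of 1 library as independent draws, so the shares describe these libraries and were not compared by a test.

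Within the members the make-up of the score differed between the libraries. *Lin28a* (chromosome 4, from 134003330 to 134018841) had 123 UMIs in WT and 29 in AKO members, 117.8 and 42.34 CPM, a ratio of AKO over WT of 0.3593 (0.2311 to 0.5421), close to the 0.3537 of the remaining cells. It did not set members apart from the remaining cells of either library, with ratios of 0.9825 (0.8078 to 1.186) and 0.9982 (0.6554 to 1.468). *Plk1* was higher in AKO members, at 252.6 against 170.5 CPM, a ratio of 1.481 (1.195 to 1.836), and *Ube2c* at 1.198 (1.092 to 1.313). *Cenpe* was lower at 0.4624 (0.3495 to 0.6055), *Tpx2* at 0.6795 (0.5528 to 0.8319) and *Cenpf* at 0.6896 (0.5852 to 0.8106). The remaining cells differed the same way, with 1.291 for *Plk1*, 1.283 for *Ube2c*, 0.5571 for *Cenpe*, 0.7615 for *Tpx2* and 0.6532 for *Cenpf*. The intervals of *Ccnb1*, *Cdc20*, *Cenpa*, *Aurka* and *Hmmr* held 1 in the members. In the remaining cells those of *Aurka* (1.328, 1.156 to 1.526) and *Hmmr* (0.7204, 0.6417 to 0.808) did not. Mitotic genes outside the score stood at 0.9326 (0.9037 to 0.9624) in AKO over WT members, against 0.8808 in the remaining cells, and histone genes at 1.056 (0.9779 to 1.139), against 1.218. Over all 4065 genes outside the score with at least 30 UMIs in the members of each library, 302 (7.43%) were at least 1.5-fold higher and 297 (7.31%) at least 1.5-fold lower in AKO members.

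Genes whose library difference was not the same in members and remaining cells were ranked by the ratio of the 2 ratios. Only genes outside the score with at least 30 UMIs in the members of each library were ranked. The largest belonged to *Eif4g3*, a translation initiation factor, with 1.448 in members against 0.6174 in the remaining cells, followed by *Rictor* of mTOR complex 2 (1.316 against 0.5776), the histone methyltransferase *Kmt5b* (1.847 against 0.8154), *Atp11b* (1.524 against 0.7120) and *Ensa*, an inhibitor of the mitotic phosphatase PP2A-B55 (1.524 against 0.7372). The smallest belonged to *Eef1e1* (0.4497 against 1.017), *Clpb* (0.5814 against 1.233), *Gm18194* (0.5041 against 0.9829), *Stt3b* (0.5671 against 1.092) and *Sumf2* (0.6209 against 1.192). In the members the intervals of *Eif4g3* (0.9039 to 2.316), *Rictor* (0.8298 to 2.079), *Atp11b* (0.8877 to 2.617) and *Ensa* (0.9583 to 2.424) held 1. That of *Kmt5b* (1.136 to 3.023) lay above 1. Those of *Eef1e1*, *Clpb*, *Gm18194*, *Stt3b* and *Sumf2* lay below 1. Each of these genes rests on 30 to 130 UMIs in the members of a library. All were named for the size of their difference, so the values are a description.

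Signs of doublets and of other cell types were looked for in the members. Their median depth was 7583 UMIs and 3451.5 genes against 6246.5 and 3009 in the remaining WT cells, and 7534.5 UMIs and 3274 genes against 8094 and 3540 in the AKO library. The AKO order was not stable, as the median depth of members over remaining cells went from 0.9309 to 1.148 with the top 20% as members and to 1.137 with the score thinned to 2000 UMIs. The Scrublet doublet caller marked 0 members of either library and 11 and 13 of the remaining cells. The 0 allows a share of marked members of up to 2.206% and 3.846%. Scrublet detects mainly doublets of unlike cells. Doublets of 2 similar ES cells may be unmarked, so these values do not limit the share of doublets. Feeder fibroblast markers had ratios of 1.009 (0.9445 to 1.077) and 0.9032 (0.8290 to 0.9826), and a summed share per member of 0% to 0.2125% and 0% to 0.1982%, and of the 11 genes *Dcn* and *Fbn1* had no UMI in members of either library. In WT members *Postn* was also at 0. The list had 1022 UMIs in WT and 599 in AKO members. *Fn1* gave 434 and 270 of them, *Vim* 269 and 170 and *Sparc* 286 and 143, so the sum mostly follows these genes. The rule itself removed cells rich in fibroblast collagens. Primitive endoderm markers had 40 and 35 UMIs in the members, ratios of 1.066 (0.7459 to 1.487) and 1.200 (0.8181 to 1.712), with *Gata6*, *Dab2*, *Cubn* and *Foxa2* of 11 markers at 0 UMIs in both and *Sox17* and *Col4a1* also in the AKO members, where a count of 0 allows 2.874 CPM in WT and 4.380 CPM in AKO members. *Pdgfra*, a receptor of this list, had 2 UMIs in WT members, a ratio of 0.5557 (0.06415 to 2.204), and 10 in AKO members, a ratio of 2.797 (1.226 to 5.831). The laminin genes *Lama1* (1.093 and 1.119) and *Lamb1* (1.197 and 1.746) had intervals that held 1. The part of these markers in the results was not tested.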

How the data were processed

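Mouse ES cells of a wild-type (WT) and a *Lin28a* knockout (AKO) clone were profiled with inDrop, 1 library each. The deposited values are UMI counts per gene and barcode, made by the authors with the published inDrop pipeline. The submitters' processing notes name the build mm10 and Seurat 2.3.4, and the aligner and annotation are not given in the sources used here. The files held 4329 WT barcodes with 12079546 UMIs and 6060 AKO barcodes with 10027710 UMIs over 54146 genes. UMIs that the tables list as ambiguous (63462 and 58924) were not used.

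At least 2000 UMIs left 1642 WT and 1110 AKO barcodes, the mitochondrial limits 1403 and 831, the ribosomal protein limit 1396 and 784 and the collagen limit 1362 and 779. The members and the gene lists were chosen with earlier results of these data known. UMIs were summed over members and over remaining cells and scaled to 1000000, and the ratio of both sums was given with an exact conditional 95% interval for 2 Poisson counts. PCR copies were already collapsed by UMI, and all intervals and the limit of 3 counts allowed by a 0 cover counting error only. A gene was compared with at least 100 UMIs per library and counted as higher or lower at 1.5-fold in both libraries, with 0.5 added to each count. Named genes were, by a fixed rule, the score genes, up to 4 genes with the most UMIs of each mitotic list and up to 3 of every other list, *Lin28a*, the top 10 and bottom 10 genes by ratio in both libraries, and the top 5 and bottom 5 by the ratio of the libraries' ratios. The last ranking took only genes outside the score with at least 30 UMIs in the members of each library. Any other gene given with a ratio is said to be chosen after its values were seen. Doublets were scored with Scrublet in scanpy 1.11.5 (16 components), and called cells were removed only in an alternative. Gene positions are from GENCODE M21 and promoter windows from RefSeq, GRCm38.p6. Alternatives were other limits for members (top 5%, top 20%), members chosen after thinning to 2000 UMIs or within 5 classes of depth, removal of Scrublet doublets, scaling by the median ratio and other count minimums. The procedure was tested on simulated data with known answers. The planted gene differences were larger than most of those reported here, and the counts held no variation between cells beyond counting error. Python 3.11.15, numpy 2.4.6, scipy 1.17.1 and pandas 2.3.3 were used.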

Additional observations from a re-analysis of the deposited data

Results flagged for a closer look

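Of 8076 genes compared, 3500 (43.34%) had ratios of members over remaining cells on opposite sides of 1 in the libraries, and for 14 (0.1734%) the counting intervals also lay wholly on opposite sides. Of the 100 genes compared that the naming rule chose, 2 were among these 14, and both were named for the size of their difference between the libraries. With 0.5 added to each count, *Sumf2*, a sulfatase-modifying factor, was 1.33 in the WT and 0.698 in the AKO library, and *Gm18194* was 1.28 and 0.660. The difference was not tested, since each condition was 1 library. Over 8076 genes some pairs of intervals lie on opposite sides by counting error alone, and their number was not estimated.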

How the results depend on the processing

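No paired analysis was possible because each condition had 1 library, and for the same reason no replicate could be left out. With the top 5% as members, genes past 1.5-fold in both libraries were 95 higher and 93 lower, and with the top 20% 32 and 18. They were 28 higher with the score thinned to 2000 UMIs, 11 and 14 with at least 400 UMIs per library, and 5756 and 646 with no minimum. In the last setting 0.5 added to counts in groups of unequal depth sets most ratios, and with the added value in proportion to depth, an alternative chosen after seeing the data, they were 900 and 2395 with no minimum and 40 and 31 with the usual one. Ribosomal protein genes in the WT library had ratios of 1.058 (top 5%), 1.018 (top 20%), 1.010 (thinned), 1.053 (within 5 classes of depth) and 1.038 (median ratio scaling). In the AKO library they had 1.087, 1.007 and 1.031 for the top 5%, the top 20% and within depth classes, and 0.9978, below 1, when thinned. Mitotic genes outside the score had 1.233 (thinned) and 1.252 (depth classes) in the WT and 1.316 (thinned) in the AKO library, and WT replication genes had 0.9412 (thinned). The median depth of WT members over remaining cells, 1.214, was 0.9958 within depth classes, which equalise it by construction, and in the AKO library 0.9309 turned to 1.148 (top 20%) and 1.137 (thinned). The share of AKO cells over the WT limit was 5.648% for the top 5% and 19.77% for the top 20%. Without Scrublet doublets 44 genes were higher and 33 lower, and that share was 10.84%. Where no cause is given, the cause was not tested. Under other choices of members, added after seeing the data, the histone ratio ran from 0.1211 (top 5%) to 0.3178 (thinned) in the WT and from 0.1441 (depth classes) to 0.2949 (thinned) in the AKO library. Depth limits the single genes, since a member held a median of 26 score UMIs in the WT library.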
